A study of Mus musculus with 29 samples.

Results

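Mouse embryonic stem cells (ESCs) were compared after a short culture in a2i/L or PKCi/L with cells kept in serum and LIF (S/L). The comparison rests on 5 of the 29 samples of the series: 1 library of line J-34 in a2i/L, 1 library of line J-35 in PKCi/L, and the S/L libraries of the J-34, J-35 and also the J-37 line, each collected at passage 10 (p10). They were chosen by their titles. All 3 lines are labelled male ESCs, and cells had entered each inhibitor medium at passage 4, so that the a2i/L and PKCi/L cells had spent 6 passages there. The labels name no genetic change in these lines and give no composition for either medium. In this field, a2i is a medium in which an inhibitor of Src kinase takes the place of the Mek1/2 inhibitor of 2i beside an inhibitor of Gsk3, PKCi is an inhibitor of protein kinase C, and LIF is the cytokine that keeps mouse ESCs self-renewing. DNA methylation was read by reduced representation bisulfite sequencing (RRBS), which cuts the genome at CCGG sites and so reads mostly CpG-rich DNA.

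Methylation of cytosine in CpG dinucleotides is copied to the new strand after each replication by Dnmt1 with its partner Uhrf1, and is set anew by Dnmt3a and Dnmt3b. ESCs in S/L carry high methylation outside CpG islands, whereas ESCs in 2i/L, in which Mek1/2 and Gsk3 are both inhibited, are known for a genome-wide loss. Promoters of germline genes and the control regions of imprinted genes are among the CpG-rich sequences that carry methylation in such cells. Both inhibitor media studied here leave Mek1/2 without a direct inhibitor in the usual recipe.

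With 1 library per medium there was no replicate of a2i/L or PKCi/L at p10, no test was made on them, and their values are set against the 3 S/L libraries and the spread between these. A difference between media can therefore not be told apart from a difference between single cultures. The labelled cell type could not be checked by expression, which RRBS does not measure. In bulk DNA, a lower level in every cell and a fully unmethylated share of cells cannot be told apart either.

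The 5 libraries were not of one coverage profile throughout. The S/L libraries listed 1331357, 1331982 and 1314003 CpGs, and a2i/L and PKCi/L listed 1658730 and 1601388. Any pair of S/L libraries shared 82.2 to 83.1% of the autosomal CpGs that either listed, while an S/L library and a2i/L or PKCi/L shared 71.1 to 72.1%. Reads over CpGs were 10864043, 12157684 and 10296723 in S/L, 18262105 in a2i/L and 16456287 in PKCi/L. The CHIR and PD libraries of J-34, treated for 6 passages with the Gsk3 inhibitor or the Mek1/2 inhibitor alone as these short names are used in the field, listed 1612958 and 1672778 CpGs, close to the counts in a2i/L and PKCi/L. All values below come from 649038 autosomal CpGs with 5 or more reads in each of the 5 libraries, so that the same CpGs are compared throughout. What the different coverage contributed to the results beyond the values given beside them was not tested.

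The a2i/L library had lost part of its methylation at p10, and the PKCi/L library had lost much less. Counting each CpG once, the mean CpG level was 28.0% in J-34, 28.2% in J-35 and 27.9% in J-37 in S/L (mean 28.0% ± 0.167, SD, n = 3). In a2i/L it was 23.8%, and PKCi/L had 27.4%. Both lie below the lowest S/L library, a2i/L by far more than the range of the 3 S/L libraries and PKCi/L by a little more than that range. The differences from the S/L mean were -4.19 percentage points for a2i/L and -0.630 for PKCi/L. For comparison, the mean CpG level was 27.2% with CHIR, 12.6% with PD and 12.1 to 12.4% in the 3 libraries of 2i/L at p10, so that a2i/L stood between S/L and 2i/L.

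The share of methylated reads, in which deeply read CpGs weigh more, gave another picture of PKCi/L. It was 28.2, 27.5 and 27.0% in S/L (mean 27.6% ± 0.621, SD, n = 3), 21.9% in a2i/L (Wilson 95% interval 21.91 to 21.95%) and 22.3% in PKCi/L (22.27 to 22.31%). A read that spans several CpGs counts at each of them, here and in the bins and promoters below. The Wilson intervals can therefore be too narrow. By the share of methylated reads, the difference from the S/L mean was -5.66 points for a2i/L and -5.29 for PKCi/L. The reads themselves were placed differently: CpGs under 20% in S/L took 64.4 to 66.1% of the reads in S/L, 68.0% in a2i/L and 72.0% in PKCi/L. With every CpG given the mean read weight it had in S/L, a weighting chosen after the data were seen, the S/L libraries were at 27.4 to 27.8%, a2i/L at 23.5% and PKCi/L at 27.1%, a difference of -4.07 points for a2i/L and -0.520 for PKCi/L. At equal weights most of the difference of PKCi/L was thus gone and most of that of a2i/L remained. The values below are therefore given by region, where this weighting matters little.

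**Figure D1:**
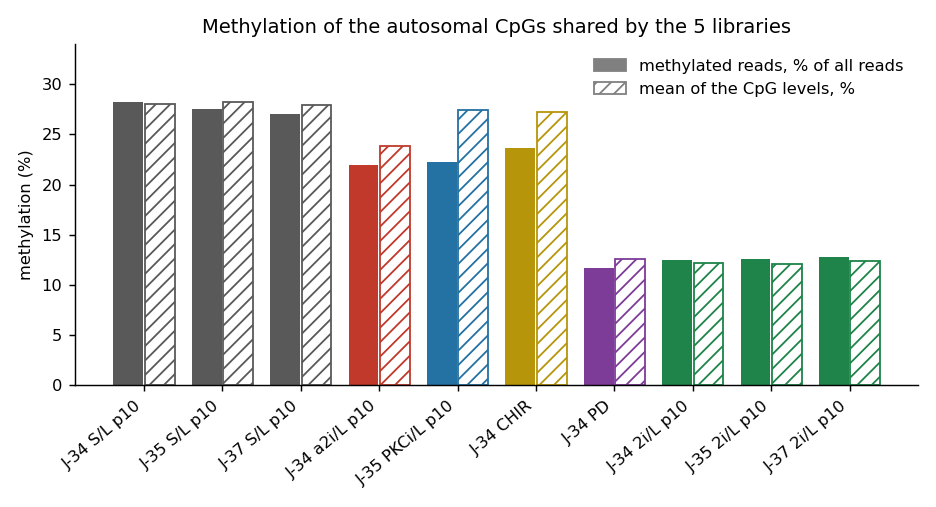
Methylation (%) of the shared autosomal CpGs in each p10 library and in the CHIR and PD libraries, as methylated reads over all reads (filled bars) and as the mean of the CpG levels (hatched bars); each bar is 1 library. By the CpG mean, a2i/L at 23.8% lies below S/L at 27.9 to 28.2%, while PKCi/L at 27.4% lies near S/L.

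Reads were summed over bins of 1 kb holding 3 or more of these CpGs, which left 60319 bins with a median of 4 CpGs. Summed over its CpGs, the median bin held 54 to 63 reads in the S/L libraries, 87 in a2i/L and 73 in PKCi/L. Reads that span several CpGs enter these sums more than once, so the number of separate reads is smaller. A bin was called lower when the library lay 20 or more percentage points below the lowest of the 3 S/L libraries, and higher when it lay as far above the highest. In a2i/L 3912 bins were lower, 6.49% of all bins, and 33 were higher, 0.0547%. In PKCi/L 820 bins were lower, 1.36%, and 190 were higher, 0.315%. The same count for each S/L library against the other 2 gave 164 to 277 lower bins and 143 to 198 higher bins. Against 2 S/L libraries at a time, a2i/L had 4849 to 5147 lower and 55 to 61 higher bins, and PKCi/L had 1172 to 1305 lower and 288 to 322 higher bins. The lower bins of both media thus outnumbered those of any S/L library counted the same way, and the higher bins of a2i/L were fewer. Against the S/L library of its own line alone, a2i/L had 7481 lower and 215 higher bins, and PKCi/L 2593 and 825. Because a single reference stands for the lowest and the highest of 3 there, these counts are not on the scale of the others.

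The loss in a2i/L was spread over the methylated genome and was not a switch of a few regions. In the 29007 bins at 50% or more in the mean of S/L, the mean level was 81.1 to 81.9% in the S/L libraries, 70.9% in a2i/L and 80.5% in PKCi/L. CHIR stood at 79.9% in these bins, PD at 37.1% and 2i/L at 35.1 to 36.1%. The S/L values chose these bins, and PKCi/L and CHIR, like a2i/L, took no part in the choice. Of these bins, 3287 (11.3%) were lower in a2i/L and 597 (2.06%) in PKCi/L. The 15548 bins under 2% in each S/L library held 0.389 to 0.419% in S/L, 0.429% in a2i/L, 0.559% in PKCi/L and 0.557% with CHIR. Bins at this level have no room for a lower call.

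In 6613 methylated bins with 50 or more reads in each of the 5 libraries, the whole distribution of differences was shifted in a2i/L. The median difference from the S/L mean was -9.00 points, with the middle 50% of bins between -17.0 and -3.17. Only 12.5% of these bins were at or above the S/L mean, and 46.2% were 10 or more points below it. In PKCi/L the median difference was -0.345 points, the middle 50% of bins lay between -5.89 and 3.54, and 15.4% were 10 or more points below. CHIR was close to PKCi/L, with a median of -0.667 and 12.1% of bins 10 or more points below. An S/L library set against the other 2 had a median between -0.304 and 0.853 and 3.77 to 6.73% of bins so far below. In 2i/L 99.6 to 99.7% of the bins were 10 or more points below, with medians of -47.0 to -46.0 points. PKCi/L and CHIR thus had medians just under those of the S/L libraries and a longer lower tail, and the median of a2i/L lay further below.

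**Figure D2:**
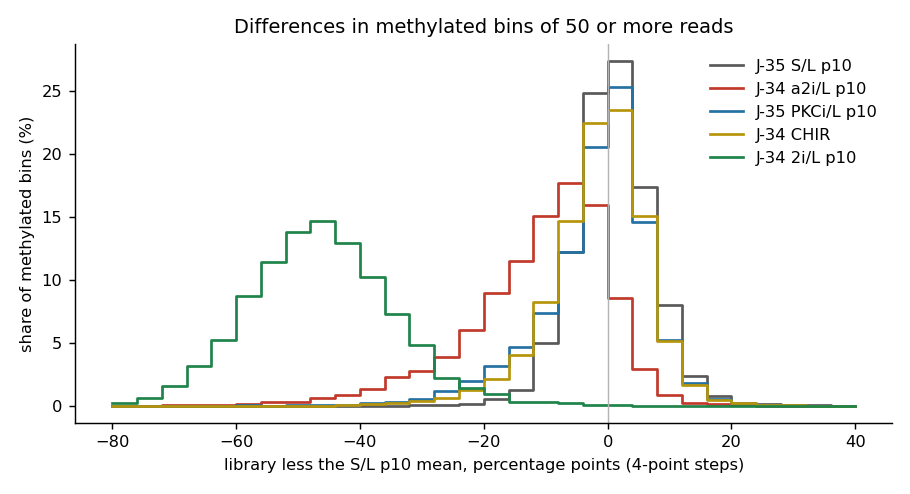
Share of methylated bins (%) by their difference from the S/L p10 mean (percentage points, 4-point steps) for 1 S/L library against the other 2, and for a2i/L, PKCi/L, CHIR and 1 library of 2i/L against all 3. The a2i/L curve is centred near its median of -9.00 points, between the S/L curve and that of 2i/L.

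Single CpGs gave the same picture of a graded loss. Of 251026 CpGs with 10 or more reads in each library, 9.22 to 9.44% were at 90% or more in the S/L libraries, 5.05% in a2i/L and 10.1% in PKCi/L. CpGs under 10% made up 66.2 to 66.4% in S/L, 69.7% in a2i/L and 68.0% in PKCi/L. Of the 8242 CpGs at 90% or more in each S/L library, 50.8% were at 90% or more in a2i/L. Another 48.8% were at 50 to 90% and 0.413% at 10 to 50%. The S/L libraries at p10 chose these CpGs, on as few as 10 reads. A library outside the choice can therefore fall below 90% by read noise alone. In PKCi/L 74.8% were at 90% or more, and with CHIR 69.5% of the 6519 read deeply enough there. S/L at p20, also outside the choice, had 49.2 to 52.7% of those read deeply enough. The mean level of these CpGs was 88.1% in a2i/L, 93.0% in PKCi/L and 91.9% with CHIR. It was 87.8 to 88.5% in S/L at p20 and 53.9 to 55.2% in 2i/L at p10.

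How much was lost depended on the level in S/L. Bins at 50 to 60% in S/L, 2127 in all, averaged 54.6 to 55.9% in the S/L libraries, 37.3% in a2i/L and 49.3% in PKCi/L. Bins at 60 to 70% averaged 64.3 to 66.1% in S/L, 48.0% in a2i/L and 61.3% in PKCi/L. Bins at 80 to 90% averaged 85.4 to 86.1% in S/L, 77.0% in a2i/L and 86.3% in PKCi/L. Of the 10 classes, that at 50 to 60% had the largest difference in a2i/L, -17.9 points. Among methylated bins, those at 90% or more had the smallest, -6.53 points from 92.8%. As a share of the S/L level, a2i/L kept 58.1% in bins at 10 to 20%, 64.6% at 40 to 50%, 81.4% at 70 to 80% and 93.0% at 90% or more. PKCi/L kept 80.3 to 83.5% in the 4 classes from 10 to 50%, and 98.4% or more from 70% upward. Partly methylated bins were thus where PKCi/L fell below S/L too, and CHIR did so there to a like extent, with 39.9% in bins at 40 to 50%, where S/L stood at 45.1% and PKCi/L at 37.7%.

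The 5300 bins at 30 to 70% in each S/L library, a class in which imprinted, variably methylated and partly methylated DNA is found, show this in 1 set. Their mean was 50.6 to 51.6% in S/L, 34.5% in a2i/L, 44.8% in PKCi/L, 46.3% with CHIR and 14.2 to 14.9% in 2i/L. Of them 1383 (26.1%) were called lower in a2i/L and PKCi/L had 414 (7.81%) such calls, where all bins gave 6.49% and 1.36%. A lower call needs at least 20% in S/L, so the count in partly methylated bins is not on equal terms with all bins. A mean over all bins is not on equal terms either, since the 15548 bins under 2% in each S/L library have little to lose. The S/L values also chose the bins at 30 to 70%, and the other libraries took no part in that choice.

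**Figure D3:**
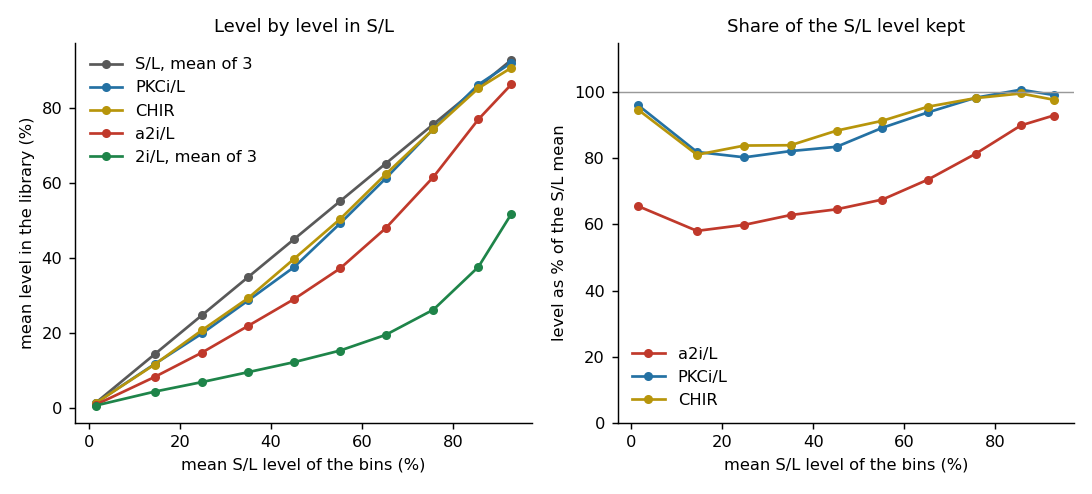
Mean level of bins (%) in S/L, PKCi/L, a2i/L and 2i/L at p10 and with CHIR against their mean level in S/L (%), in 10 classes (left), and the level as a percentage of the S/L mean (right). The a2i/L line keeps 58.1% of the S/L level at 10 to 20% in S/L and 93.0% at 90% or more, and PKCi/L and CHIR run close together.

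CpG density was set against the loss, first over all bins and then among bins alike in S/L. Over all bins, 9.52% of the 30489 bins with 3 or 4 CpGs were lower in a2i/L, 6.33% of the 14910 with 5 to 9 and 0.853% of the 7501 with 10 to 19. None of the bins of 20 or more CpGs was lower, and their mean in S/L was 1.29% for 20 to 29 CpGs and 0.755% for 30 or more. The dense bins were thus nearly unmethylated in S/L to begin with. Among methylated bins the calls were 11.2, 11.7 and 12.5% in the same 3 density classes, and the mean level fell from 81.9 to 71.6%, from 79.9 to 68.8% and from 75.4 to 64.4%. At 70 to 80% in S/L the difference of a2i/L was -13.76 points for 3 or 4 CpGs, -14.997 for 5 to 9 and -14.1 for the 68 bins of 10 to 19. At 80 to 90% it was -8.49, -8.97 and -8.35. In a2i/L the 3 density classes thus differed by less than 2 points in bins at 70 to 80% and in bins at 80 to 90% in S/L. Bins at 10 to 50% in S/L were different, with -11.6 points for 3 or 4 CpGs, -10.2 for 5 to 9, -8.04 for 10 to 19, -6.001 for the 63 bins of 20 to 29 and -6.11 for the 28 of 30 or more. The S/L mean of these classes also fell with density, at 29.6, 27.7, 23.4, 18.7 and 17.8%. Calls made up 9.45, 6.83 and 2.66% of the first 3 of them, and the 2 densest classes had none. In PKCi/L the difference in methylated bins was -0.646 points for 3 or 4 CpGs, -1.68 for 5 to 9 and -3.64 for the 368 bins of 10 to 19, while the calls were 2.05, 2.10 and 2.17%. At 70 to 80% in S/L the difference of PKCi/L was -0.860, -2.26 and -4.39 points in the same classes, and at 80 to 90% it was 0.838, 0.133 and -0.954. In the bins at 10 to 50% in S/L it was -5.03, -5.11 and -4.87 points.

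Among bins alike in S/L, those lower in 2i/L were also lower in a2i/L. Among the bins at 80 to 90% in S/L, the 81 that were under 10% in the mean of the 3 libraries of 2i/L averaged 83.2 to 84.1% in S/L and 45.4% in a2i/L. The 3925 that were at 30 to 40% in 2i/L averaged 85.2 to 85.8% in S/L and 76.7% in a2i/L. The 446 that were at 60% or more in 2i/L averaged 87.3 to 87.7% in S/L and 89.2% in a2i/L. The a2i/L level thus ran from far below S/L to the S/L level across bins that were alike in S/L. PKCi/L ran over a narrower range in the same 3 classes, at 76.2, 85.6 and 92.4%, and CHIR at 75.4, 84.7 and 90.7%. The bins at 60 to 80% in S/L gave the same order, with 33.9% in a2i/L, 59.4% in PKCi/L and 59.5% with CHIR in the 589 bins under 10% in 2i/L. S/L and 2i/L values sorted the bins, so the class means of PKCi/L and CHIR, sorted the same way, stand beside those of a2i/L as the comparison.

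The order of bins was also described with controls that the libraries do not share. In 5145 methylated bins of 50 or more reads in every p10, CHIR and PD library, the change of J-34 from S/L to a2i/L had Pearson's r = 0.36 (Spearman's rho 0.35) with the change of J-37 from S/L to 2i/L, and r = 0.36 (rho 0.37) with that of J-35. The changes of J-34 and J-37 from S/L to 2i/L had r = 0.64 (rho 0.61) with each other. The change of J-35 from S/L to PKCi/L had r = 0.0013 with that of J-37 to 2i/L, and 0.21 (rho 0.17) with that of J-34 to a2i/L. These are correlations across bins within single pairs of libraries, bins are not independent replicates, and all share the S/L level and CpG content of the bin.

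**Figure D4:**
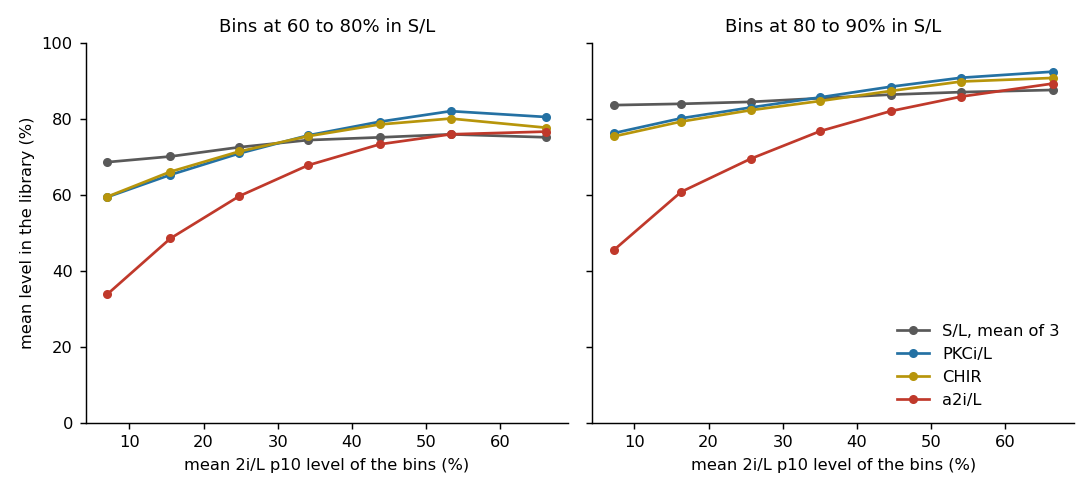
Mean level (%) in S/L, PKCi/L, CHIR and a2i/L against the mean 2i/L p10 level (%), for bins at 60 to 80% (left) and 80 to 90% (right) in S/L. Each point is a class of bins; at 80 to 90% in S/L, a2i/L runs from 45.4% in bins under 10% in 2i/L to 89.2% in bins at 60% or more, and S/L from 83.6 to 87.6%.

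The loss was found on every autosome. In methylated bins the difference of a2i/L from S/L ran from -11.8 points on chromosome 11 to -8.63 on chromosome 3, and that of PKCi/L from -2.24 on chromosome 11 to 0.597 on chromosome 14. Touching bins went together to some degree: of the bins beside a lower bin in 1752 pairs of touching methylated bins, 22.8% were lower in a2i/L, against 10.0% of all bins in such pairs. Methylated bins were also sorted by the distance to a gene's start, where starts could be placed on the CpGs of the files. As 9035 of 27025 genes were placed, a bin far from a placed start may lie near one that was not. Methylated bins within 1 kb of a placed start, 143 in all, averaged 70.3 to 71.4% in S/L and 57.3% in a2i/L, a difference of -13.3 points. The 9871 bins 100 kb or more away averaged 83.2 to 83.9% in S/L and 73.9% in a2i/L, a difference of -9.59. PKCi/L differed by -1.61 points within 1 kb, by -4.17 at 1 to 5 kb and by 0.684 at 100 kb or more, so its difference was not largest in the nearest class.

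The 6 bins furthest below S/L in a2i/L, among those of 5 or more CpGs and 50 or more reads in every library, stood there at 3.43 to 20.7%. The furthest was chr12:104559709-104559855 (mm9, 6 CpGs), which was at 73.8% in J-34, 72.0% in J-35 and 80.3% in J-37 in S/L, 4.49% in a2i/L (Wilson 95% interval 1.76 to 11.0%, 89 reads) and 70.1% in PKCi/L. It lies 6540 bases from the placed start of Fam181a. With CHIR it stood at 60% and in 2i/L at 5.62% or less. The a2i/L library was here at the 2i/L level, while PKCi/L was just under the lowest S/L library. The second, chr10:107881052-107881531 (7 CpGs), was at 69.3, 70.8 and 78.8% in S/L, 11.6% in a2i/L (7.35 to 17.7%) and 72.1% in PKCi/L. The third, chr4:136398772-136398969 (7 CpGs), 6845 bases from the placed start of Ephb2, a receptor of ephrins, was at 64.3, 76.3 and 71.4% in S/L, 9.04% in a2i/L and 62.9% in PKCi/L. In the other 3 of these bins a2i/L differed by -54.8, -54.5 and -54.3 points from the lowest S/L library.

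At p20, after 16 passages in the medium, a2i/L was below every S/L library at 2 of the 3 bins just described. At the bin near Fam181a, a2i/L of J-34 and J-35 at p20 had 35 and 29.9%, against 48.2, 53.5 and 70.7% in S/L at p20. At the bin near Ephb2 they had 30.7 and 29.8%, against 62.0, 50.4 and 50.9%. The second bin, by contrast, was at 63.8 and 58.1% in a2i/L at p20 and at 59.5 to 67.0% in S/L.

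The 4 bins furthest below S/L in PKCi/L were led by chr7:134380318-134380406 (5 CpGs). It was at 65.9, 74.2 and 58.5% in S/L, 8.11% in PKCi/L (Wilson 95% interval 4.32 to 14.7%, 111 reads) and 12.8% in a2i/L. It lies 3674 bases from the placed start of Gm4532. CHIR was at 73.3% there, and all later libraries of a2i/L and PKCi/L were at 5.95 to 10.2%, while S/L at p20 was at 59.2 to 75.4%. Low values in both inhibitor media and high values in every S/L library thus held at both passages at this site. The second, chr11:94075313-94075462 (6 CpGs), 2545 bases from the placed start of Tob1, an antiproliferative regulator, was at 71.2, 66.3 and 65.7% in S/L, 19.3% in PKCi/L, 26.9% in a2i/L and 38.1% with CHIR. In the other 2 PKCi/L was at 11.7 and 22.6%, and a2i/L at 13 and 34.9%.

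Gains in a2i/L were rare, and 4 of the 33 are given here by the same rule. The furthest above was chr6:4856026-4856286 (8 CpGs), 2715 bases from the placed start of Ppp1r9a, a scaffold protein of the synapse. It was at 12.2, 13.5 and 11.5% in S/L, 53.2% in a2i/L (Wilson 95% interval 45.0 to 61.2%) and 30.6% in PKCi/L. At p20 it was at 84.5 and 86.0% in a2i/L, 40 and 31.0% in PKCi/L and 2.78 to 21.6% in S/L. The other 3 were at 42.5 to 62.8% in a2i/L and 46.2 to 80.8% in PKCi/L at p10, against 10.1 to 32.2% in S/L. All 33 bins together averaged 30.5 to 31.9% in S/L, 61.7% in a2i/L and 51.0% in PKCi/L at p10. At p20 they were at 73.8 and 77.5% in a2i/L, 60.5 and 61.7% in PKCi/L and 22.7 to 23.5% in S/L. The 190 bins higher in PKCi/L averaged 39.8 to 40.7% in S/L, 71.9% in PKCi/L and 40.9% in a2i/L at p10. At p20 these were at 67.2 and 70.6% in PKCi/L, 62.9 and 65.8% in a2i/L and 28.97 to 31.5% in S/L. Both sets thus lay above S/L in both media at p20, but this direction was not particular to them. At p20 the 5300 bins at 30 to 70% in each S/L library at p10 averaged 52.9 and 55.5% in a2i/L. They averaged 51.6 and 55.3% in PKCi/L and 37.9 to 39.4% in S/L. The p10 values chose the 33 and the 190 bins and are a description, while the p20 libraries took no part in the choice.

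Over all 368 methylated bins of 10 to 19 CpGs the mean level was 75.4% in S/L and 64.4% in a2i/L, as given above. The 4 dense bins that follow were chosen by their low a2i/L values and are a description only. Of bins with 15 or more CpGs, the furthest below S/L in a2i/L was chr15:93331125-93331524 (16 CpGs), at 55.6, 60.8 and 57.4% in S/L, 18.5% in a2i/L (Wilson 95% interval 14.7 to 22.9%, 341 reads) and 59.7% in PKCi/L. In 2i/L it was at 5.16 to 12.5%. The next, chr10:86371574-86371936 (15 CpGs), was at 77.3, 81.2 and 77.8% in S/L, 46.9% in a2i/L and 73.4% in PKCi/L. The third, chr8:124440179-124440464 (17 CpGs), 8446 bases from the placed start of BC048644, stood at 60.3, 58.3 and 56.5% in S/L, 35.3% in a2i/L and 52.1% in PKCi/L. The fourth, chr11:3093351-3093631 (15 CpGs), 8725 bases from the placed start of Eif4enif1, stood at 57.9, 59.3 and 54.7% in S/L, 33.6% in a2i/L and 44.1% in PKCi/L. It was read far more deeply than the others, with 7540 reads in a2i/L and 3793 or more in each of the 5 libraries. The first 3 bins had 341, 354 and 468 reads in a2i/L. Whether all reads of the fourth come from this place was not tested. The gap of PKCi/L to the lowest S/L library was 4.05 points in the first of the 4 bins and -3.96, -4.44 and -10.6 in the others.

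Promoters could be measured where the order of CpGs in a promoter's RefSeq sequence matched the spacing of CpGs in the files at 1 place only. This placed 10217 promoter windows, of which 10193 (99.8%) fell on the chromosome of their gene, and gave 7453 genes with 3 or more measured CpGs in the 300 bases from 250 before to 50 after the start. In a2i/L 17 of them (0.228%) were lower by 20 or more points than every S/L library and 0 were higher. In PKCi/L 0 were lower and 2 (0.0268%) were higher, Gm13748 and Kcnip3. Gm13748 was at 50.9, 52.9 and 53.3% in S/L, 69.5% in a2i/L and 87.0% in PKCi/L. Kcnip3, which encodes a calcium-binding partner of potassium channels, was at 34.88, 12.96 and 34.29% in S/L, 22.97% in a2i/L and 62.5% in PKCi/L. Both were named because of these calls. Most promoters had no methylation to lose, since 7218 of the 7453 were under 10% in every S/L library. The 50 promoters at 50% or more in each S/L library held a median of 12 CpGs in 300 bases, against 27 over all 7453. Of these 50, 12 were lower in a2i/L and 0 in PKCi/L. Genes whose windows share their measured CpGs are counted separately in all of these counts, as are Dnajc5g and Slc30a3 among the 12. The median level of the 50 was 75.5% in S/L, 58.3% in a2i/L and 77.8% in PKCi/L, and 41 of 50 lay below every S/L library in a2i/L.

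The sequences of 7 promoters follow, to show the DNA that was read: 4 that were lower in a2i/L or belong to germline genes, 1 of the 4 nearest to no change (Gm6566), and a pair of muscle genes, Acta1 and Ckm, chosen after their values were seen because they are alike in tissue and unlike here. Each is the 250 bases before the start, 5′ to 3′ on the gene's own strand, from RefSeq on GRCm38.p6, with the measured CpGs in capitals.
Asz1: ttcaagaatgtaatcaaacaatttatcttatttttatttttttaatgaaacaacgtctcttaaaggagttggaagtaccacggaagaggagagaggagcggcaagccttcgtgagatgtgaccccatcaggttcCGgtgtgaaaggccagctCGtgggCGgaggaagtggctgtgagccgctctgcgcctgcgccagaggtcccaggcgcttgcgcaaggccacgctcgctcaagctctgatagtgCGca
Sycp1: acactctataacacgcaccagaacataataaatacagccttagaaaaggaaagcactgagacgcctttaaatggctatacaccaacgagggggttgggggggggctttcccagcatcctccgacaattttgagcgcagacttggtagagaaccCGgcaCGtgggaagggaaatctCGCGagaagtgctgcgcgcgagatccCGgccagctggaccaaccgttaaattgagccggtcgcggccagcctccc
Arpp21: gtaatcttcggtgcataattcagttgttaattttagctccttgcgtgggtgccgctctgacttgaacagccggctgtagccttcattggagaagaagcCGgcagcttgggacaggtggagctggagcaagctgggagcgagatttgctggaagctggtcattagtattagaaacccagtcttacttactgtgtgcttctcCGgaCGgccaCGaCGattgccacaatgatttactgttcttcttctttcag
Timm8a2: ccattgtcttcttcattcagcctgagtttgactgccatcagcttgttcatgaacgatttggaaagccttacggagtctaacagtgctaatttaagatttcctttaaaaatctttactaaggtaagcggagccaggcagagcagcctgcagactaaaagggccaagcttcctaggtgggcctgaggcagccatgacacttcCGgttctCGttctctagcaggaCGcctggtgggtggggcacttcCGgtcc
Gm6566: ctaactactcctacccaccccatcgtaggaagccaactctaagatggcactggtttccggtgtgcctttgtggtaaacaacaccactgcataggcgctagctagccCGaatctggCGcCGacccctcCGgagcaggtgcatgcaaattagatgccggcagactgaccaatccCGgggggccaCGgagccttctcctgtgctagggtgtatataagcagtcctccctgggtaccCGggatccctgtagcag
Acta1: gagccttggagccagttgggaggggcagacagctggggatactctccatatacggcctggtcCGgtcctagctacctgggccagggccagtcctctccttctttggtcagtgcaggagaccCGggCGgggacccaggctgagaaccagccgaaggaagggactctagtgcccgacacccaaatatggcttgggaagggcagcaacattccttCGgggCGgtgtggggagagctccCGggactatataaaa
Ckm: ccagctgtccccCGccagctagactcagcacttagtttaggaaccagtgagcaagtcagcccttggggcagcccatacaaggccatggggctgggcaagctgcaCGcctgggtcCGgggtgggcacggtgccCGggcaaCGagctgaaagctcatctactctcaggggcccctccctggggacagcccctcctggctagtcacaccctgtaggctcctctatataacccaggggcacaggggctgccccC
The windows lie, on mm9 as placed, at chr6:18059012-18059311 (minus strand) for Asz1, chr3:102739974-102740273 (minus) for Sycp1, chr9:112090221-112090520 (minus) for Arpp21, chr14:122433646-122433945 (plus) for Timm8a2, chr12:88496386-88496685 (minus) for Gm6566, chr8:126418626-126418925 (minus) for Acta1 and chr7:19996193-19996492 (plus) for Ckm.

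Of the 10 germline promoters measured, 1 was called lower in a2i/L. Asz1, a germ cell protein of the piRNA pathway, was at 64.4, 63.5 and 53.2% in S/L of J-34, J-35 and J-37, 41.8% in a2i/L (Wilson 95% interval 30.7 to 53.7%, 67 reads) and 58.7% in PKCi/L. Sycp1, a rod protein of the synaptonemal complex of meiosis, was at 51.9, 53.4 and 45.3% in S/L, 31.1% in a2i/L (23.9 to 39.3%) and 48.5% in PKCi/L. In both, a2i/L lay below every S/L library and PKCi/L within their range. The gaps of a2i/L to the lowest S/L library were -11.4 points in Asz1 and -14.2 in Sycp1, short of the 20 points of a call. Tex101, a surface protein of germ cells whose measured CpGs all lie after the start, was at 82.3, 79.7 and 78.3% in S/L, 56.4% in a2i/L (47.0 to 65.3%) and 77.0% in PKCi/L. Tex101 was the promoter that was called.

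Of the 46 germline genes listed, 10 were measured and 4 were at 20% or more in each S/L library, of which 3 lay below every S/L library in a2i/L. Of all 94 promoters at 20% or more in each S/L library, 74 did so. The fourth was Dazl, an RNA-binding protein of germ cells, at 34.5, 37.5 and 22.2% in S/L, 25.8% in a2i/L and 41.7% in PKCi/L, where the groups overlap. The median difference of the 10 from S/L was -7.09 points in a2i/L and -0.488 in PKCi/L, and the median over all promoters was 0 in both. Since most promoters start near 0, this sets the list beside genes that could not fall. Among the 94 promoters at 20% or more, the median difference was -15.01 points in a2i/L and -1.42 in PKCi/L. The median of the 10 is not on these terms, as it includes promoters below that level. The 4 germline promoters at 20% or more differed from the S/L mean in a2i/L by -23.7 (Tex101), -19.1 (Sycp1), -18.6 (Asz1) and -5.60 points (Dazl). In PKCi/L they differed by -3.03, -1.68, -1.66 and 10.3 points.

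Single CpGs of the Sycp1 promoter rest on 5 to 36 reads in each library. At the CpG 75 bases before the start, S/L stood at 76.9, 64.0 and 50% and a2i/L at 36.1% (36 reads). At the CpG 49 bases before it, S/L was at 57.1, 58.8 and 60% and a2i/L at 34.8%. The CpG 92 bases before the start lies in the letters CACGTG, an E-box, which 7.15% of the 32851 RefSeq windows and 2 of the 50 methylated promoters hold. It was at 40% or less in S/L, 10.5% in a2i/L and 9.09% in PKCi/L, on 9 to 19 reads, too few to order the libraries. In the Asz1 promoter the CpG 116 bases before the start was at 54.5, 57.1 and 66.7% in S/L, 22.2% in a2i/L and 25.0% in PKCi/L, on 6 to 11 reads.

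Arpp21 encodes a phosphoprotein regulated by cAMP in neurons. Its promoter was at 86.5, 96.5 and 90.2% in S/L, 58.5% in a2i/L (Wilson 95% interval 45.1 to 70.7%, 53 reads) and 97.2% in PKCi/L. Timm8a2, a copy of a gene for import into mitochondria, was at 60.4, 56.9 and 59.1% in S/L, 27.4% in a2i/L (21.2 to 34.7%, 164 reads) and 40.1% in PKCi/L. In Timm8a2 all 7 measured CpGs were lower in a2i/L than in each S/L library, from 50 bases before to 34 bases after the start, and over the whole window PKCi/L was below every S/L library. At the CpG 21 bases after the start PKCi/L was at 68%, inside the S/L range of 50 to 77.3%. At the CpG 6 bases before the start, for example, S/L was at 55.6, 33.3 and 50%, a2i/L at 11.1% and PKCi/L at 15.4%. Caln1, a calcium-binding protein of neurons, was at 65.1, 74.6 and 71.4% in S/L, 38.4% in a2i/L and 58.8% in PKCi/L. Slc30a3, a zinc transporter of synaptic vesicles, and Dnajc5g, a cochaperone, start beside each other on opposite strands and share their measured CpGs, at 73.3, 88.5 and 87.9% in S/L, 47.1% in a2i/L and 77.8% in PKCi/L.

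The other promoters among the 12 furthest below were those of predicted genes. Gm33931 was at 91.9, 88.1 and 81.8% in S/L, 51.6% in a2i/L and 76.9% in PKCi/L. Gm31129, Gm33806, Gm2511, Gm32767 and Gm52172 differed by -27.6 to -22.3 points from the lowest S/L library in a2i/L, and in PKCi/L all 5 were above that library. All 12 rest on 3 to 7 measured CpGs and 36 to 164 reads in a2i/L.

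The promoters nearest to no change were, by contrast, as high in a2i/L as in S/L. Gm6566 was at 93.6, 91.1 and 85.2% in S/L, 89.8% in a2i/L (Wilson 95% interval 83.6 to 93.8%, 137 reads as summed over 9 CpGs) and 95.1% in PKCi/L. In 2i/L it was still at 68.2 to 84.2%, the highest of the promoters named here. Gm14329 and Gm38744 were at 90 and 94.8% in a2i/L, inside the range of their S/L libraries. Gm46116 was at 68.6, 81.9 and 60.3% in S/L and 70.7% in a2i/L.

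Acta1, skeletal muscle actin, was at 74.4, 69.3 and 60.6% in S/L, 43.2% in a2i/L (Wilson 95% interval 34.4 to 52.5%) and 68.0% in PKCi/L. Ckm, the creatine kinase of muscle, was at 72.4, 77.3 and 80% in S/L, 69.2% in a2i/L (60.4 to 76.7%) and 81.6% in PKCi/L. In 2i/L Acta1 was at 16.7 to 21.6% and Ckm at 27.9 to 41.7%. From the lowest S/L library, a2i/L differed by -17.4 points at Acta1 and by -3.20 at Ckm.

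**Figure D5:**
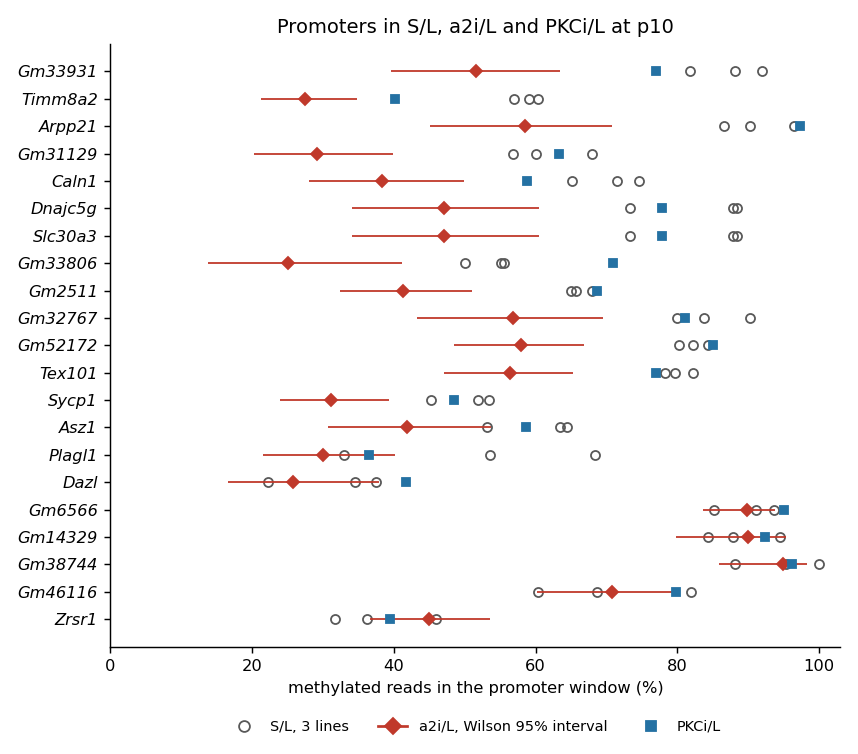
Methylated reads (%) in the named promoter windows for the 3 S/L libraries (open circles), a2i/L (diamonds, bars are Wilson 95% intervals) and PKCi/L (squares) at p10. In the 12 upper promoters a2i/L differs by -30.3 to -21.9 points from the lowest S/L library.

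None of the imprinted promoters measured was called lower in either medium, where 0.228% of all promoters and 17 of the 94 at 20% or more in each S/L library were called in a2i/L, and none of the 7453 in PKCi/L. Of 37 genes listed, 9 promoter windows were measured, 6 were under 10% in every S/L library, and 2 were at 20% or more in each. Plagl1, a paternally expressed zinc finger gene, was at 53.5, 33.0 and 68.4% in S/L, 30% in a2i/L (Wilson 95% interval 21.5 to 40.1%) and 36.4% in PKCi/L. Zrsr1, a retrogene expressed from the paternal allele, was at 31.7, 45.9 and 36.2% in S/L, 45.0% in a2i/L and 39.4% in PKCi/L, within the range of S/L. With an SD of 17.8 points between the S/L libraries at Plagl1, its a2i/L value was not told apart from S/L. In 2i/L Plagl1 stood at 12.9 to 23.9% and Zrsr1 at 18.6 to 22.7%.

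Promoters of regulators were nearly unmethylated in S/L. Of the pluripotency genes 5 of 18 were measured, of the DNA methylation machinery 7 of 11, of the kinase pathway genes 11 of 24 and of the lineage genes 5 of 16, and all were under 10% in every S/L library. Their median levels in a2i/L were 0% for the pluripotency and kinase lists, 0.298% for the methylation machinery and 0.315% for the lineage list. Klf4 and Sox2, core factors of pluripotency, the methylation genes Dnmt3b and Uhrf1, and the kinase pathway genes Dusp6 and Src were among those read.

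The bins that had fallen in a2i/L at p10 were followed in the other libraries. These 3912 bins averaged 67.5 to 67.9% in S/L, 33.8% in a2i/L and 59.0% in PKCi/L at p10, where the first 2 values chose them. In libraries that did not choose them, they were at 58.1% with CHIR, 18.1% with PD, 15 to 15.6% in 2i/L at p10 and 52.4 to 54.9% in S/L at p20. In a2i/L at p20 they were at 58.0% in J-34 and 59.5% in J-35, above S/L of the same passage. In PKCi/L at p20 they were at 62.7 and 67.0%. Of 3889 of these bins with 10 or more reads in the S/L and a2i/L libraries at p20, 3801 (97.7%) were higher in J-34 a2i/L at p20 than at p10. J-34 in S/L at p20 was also above J-34 a2i/L at p10 in 3742 of them. The low p10 value chose these bins, so the count is a description. In 55 of the bins both a2i/L libraries at p20 lay 20 or more points below every S/L library at p20, and in 180 they lay as far above.

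The methylated bins as a whole, which a2i/L did not choose, showed the same course. They averaged 70.9% in a2i/L of J-34 at p10 and 83.3 and 83.5% in a2i/L of J-34 and J-35 at p20, while S/L moved from 81.1 to 81.9% at p10 to 72.9 to 74.5% at p20. In PKCi/L they averaged 80.5% at p10 and 82.4 and 84.7% at p20. At p10 a2i/L differed from the S/L mean by -10.6 points in these bins, and at p20 both a2i/L libraries lay above every S/L library of that passage. The p20 libraries were read with other coverage, listing 1710003 to 1952838 CpGs in a2i/L and PKCi/L, and passage and coverage cannot be told apart there.

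The 820 bins lower in PKCi/L averaged 60.9 to 62.3% in S/L, 29.8% in PKCi/L and 36.7% in a2i/L at p10. In the libraries that took no part in the choice they were at 50.1% with CHIR, 14.4 to 14.8% in 2i/L, 45.5 to 46.7% in S/L at p20 and 47.9 and 52.3% in PKCi/L at p20. The a2i/L and PKCi/L calls share their S/L libraries.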

How the data were processed

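CpG methylation was measured by RRBS; 17 of the 29 libraries were used, 5 for the comparison and 12 set beside it. Per the submitters' processing notes the authors used BSMAP 2.89 and the mouse build mm9; other steps, such as trimming, were not given in the sources used here. Each deposited list gives, per CpG, an unnamed text field of methylated reads over all reads, recorded here under the unit other, and a score that the authors deposited, which in all 17 lists was the whole-number part of 1000 times the share. The counts in the text field were used.

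Computed here, in Python 3.11.15 with numpy 2.4.6: autosomal CpGs with 5 or more reads in all 5 libraries, the share of summed reads, and sums over 1 kb bins of 3 or more CpGs. No test was made on single libraries. Calls needed 20 points beyond all 3 S/L libraries. Wilson 95% intervals treat the counts summed over CpGs as independent, although a read that spans several CpGs enters at each. They can therefore be too narrow even for counting error, and they cover no other variation. Reads carried no molecular identifiers. The S/L libraries come from separate lines.

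Promoters (RefSeq, GRCm38.p6) were placed by the spacing of their CpGs: 17116 of 32851 windows had enough CpGs, and 10217 matched 1 place by at least 7 CpGs and by 2 more than any other, which covered 9035 of 27025 genes. Regions were not assigned to exons or introns. Coordinates are mm9, counted from 1.

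Named were the bins and promoters furthest below or above S/L, those nearest to no change, and list members at 20% or more in each S/L library; Acta1, Ckm, Gm13748 and Kcnip3 lie outside that rule. The samples, gene lists and thresholds were chosen with earlier results of these data known. The libraries of J-34 and J-35 could be paired with S/L of the same line: over 29007 methylated bins, their deviations from the S/L mean had r = -0.014 and -0.0048 with those of the S/L library of their own line. The bin count was tried on simulated reads, drawn at the S/L mean of each bin in every library, with some bins lowered in a2i/L. The simulation drew all counts of a bin as independent and held no variation between cultures or lines. It thus covers only the counting error of independent counts, which reads spanning several CpGs do not give. Alternatives were other read minimums, bin sizes, thresholds, weights and S/L references.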

Additional observations from a re-analysis of the deposited data

How the results depend on the processing

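Both levels stayed below S/L and the order of the 4 bin counts (a2i/L lower, PKCi/L lower, PKCi/L higher, a2i/L higher) was the same in every alternative run; sizes moved, and except where fewer CpGs or references enter by construction, the cause was not tested. The difference of the share of methylated reads from S/L was -4.76 points in a2i/L and -4.04 in PKCi/L at 10 or more reads per CpG, -6.29 and -6.19 at 1 or more, -4.68 and -4.26 in CpGs of bins with 3 or more CpGs, -4.19 and -0.630 as the mean of CpG levels, and -4.07 and -0.520 at S/L read weights, which was chosen after the data were seen. With the replicate block, S/L of the same line, it was -6.30 and -5.26. Without 1 S/L library at a time a2i/L ranged between -5.96 and -5.34, while PKCi/L ranged between -5.60 and -4.98.

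Counts are given as a2i/L lower, a2i/L higher, PKCi/L lower and PKCi/L higher. They were 945, 3, 226 and 35 at 10 or more reads per CpG (25881 bins); 767, 6, 155 and 21 in bins of 5 or more CpGs and 50 or more reads (26547 bins); 1305, 7, 182 and 43 at 30 points; 10695, 182, 3470 and 1076 at 10 points; 7481, 215, 2593 and 825 with the replicate block; and 6861, 98, 1929 and 497 against the mean of S/L. Without 1 S/L library at a time they were 4849 to 5147, 55 to 61, 1172 to 1305 and 288 to 322. Bin sizes of 500 bases and 2 kb, a minimum of 1 read and the mean of CpG levels kept each count within 1.5 times. Single libraries, 3 to 4 CpGs in most bins and unequal coverage limit all of these values.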
